A study of Mus musculus with 13 samples.

Results

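The transcripts of the Aurora kinase genes Aurka, Aurkb and Aurkc and of the chromosomal passenger genes Incenp, Birc5 and Cdca8 were measured in single mouse oocytes. These 6 genes were chosen by gene symbol, as members of one kinase family and its complex, out of 18939 genes listed in both count tables. All 6 were found in the count tables and in the FPKM table, and all 6 passed the filter on low counts in every comparison. The symbols set no limit on a measured value, but the family was picked with earlier results of these libraries known, so its adjusted p-values describe these libraries and are not independent evidence.

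The oocytes came from C57BL/6 females aged 3 to 4 weeks that had been primed with PMSG. Each received FBL-GFP mRNA, which marks the nucleolus, together with H2B-mCherry mRNA, and was then held for 6 h in Cilostamide, a phosphodiesterase 3 inhibitor that keeps oocytes at the germinal vesicle (GV) stage. The FBL-GFP pattern divided them into NSN oocytes, whose nucleolus is not surrounded by condensed chromatin, and SN oocytes, whose nucleolus is. After release from the drug, some matured in vitro to metaphase II (MII). The zona pellucida was removed and cDNA was made from poly(A) RNA of 1 oocyte per library by SMART-seq2. There were 3 SN-GV, 3 NSN-GV, 4 SN-MII and 3 NSN-MII libraries, 13 in all. Every group therefore carried the injected mRNAs and the drug treatment, and the MII groups hold only oocytes that reached that stage. The labels do not say which oocytes shared an animal, so the p-values measure the spread between these oocytes. Because cDNA synthesis starts from the poly(A) tail and no external standard entered these values, fewer molecules and a shorter tail cannot be told apart, and every level is a share of its library.

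The Aurora kinases are serine/threonine kinases of cell division. Aurora A works at spindle poles, where its cofactor TPX2 activates it and where it drives microtubule nucleation. Aurora B and Aurora C are alternative kinase subunits of the chromosomal passenger complex, in which INCENP is the scaffold that binds and activates the kinase, and survivin (Birc5) and borealin (Cdca8) bring the complex to centromeres. The complex releases wrongly attached kinetochores and takes part in cytokinesis. Aurora C is found mainly in germ cells and early embryos, and oocytes hold all 3 kinases.

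On the GRCm38 build with GENCODE M21 annotation, Aurka lies on chromosome 2 from 172356190 to 172370535 on the minus strand. Aurkb (chromosome 11, 69045647 to 69051664) and Birc5 (chromosome 11, 117849251 to 117855743) are on the plus strand of the same chromosome. Aurkc is on the plus strand of chromosome 7 from 6995300 to 7003091. Incenp (chromosome 19, 9872296 to 9899551) and Cdca8 (chromosome 4, 124918465 to 124939311) are on the minus strand.

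The 3 kinase genes are close relatives, so it matters whether reads of one could be counted for another. Over aligned coding bases, Aurkb and Aurkc were 70.6% identical, Aurka and Aurkc 63.4%, and Aurka and Aurkb 60.8%. The longest identical run between Aurkb and Aurkc was 25 bases, and no pair shared a word of 50 bases. The stretch shown is the gap-free window of 90 coding bases in which Aurkb and Aurkc were most alike, printed 5′ to 3′ on the coding strand, with capitals for the bases that differ from Aurkb. It falls in 2 exons of each gene, at chr2:172359831-172362791 for Aurka, chr11:69048628-69048803 for Aurkb and chr7:6997636-7000051 for Aurkc, intron included.
Aurkb: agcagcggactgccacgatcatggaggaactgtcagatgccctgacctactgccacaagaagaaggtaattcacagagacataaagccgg
Aurkc: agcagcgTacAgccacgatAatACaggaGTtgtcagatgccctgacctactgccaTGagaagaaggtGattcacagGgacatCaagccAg
Aurka: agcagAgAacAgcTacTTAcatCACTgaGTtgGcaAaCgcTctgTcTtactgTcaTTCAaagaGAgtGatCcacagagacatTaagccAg
Even here, Aurkc differed from Aurkb at 13 bases and Aurka at 30. Aurka, Aurkb and Incenp shared no 50-base word with any other annotated gene, and Birc5 and Cdca8 shared 2.09% and 2.93% of theirs.

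Aurkc is the exception. It shared 914 of its 1667 words of 50 bases (54.8%) with other loci, 677 of them with the processed pseudogene Gm12463. The authors' FPKM table lists Gm12463 at 0 to 3.3 FPKM over the 13 libraries and Gm7789, which holds 155 of the words, at 16.2 to 41.4 FPKM. The count of Aurkc was a whole number in 2 of 13 libraries, against 13 of 13 for Aurka, Aurkb, Incenp and Birc5 and 11 of 13 for Cdca8. Its values therefore include reads divided between loci by the authors' program. The Cdca8 locus also overlaps 9930104L06Rik and the Incenp locus overlaps AC132253.8, and reads of overlapping genes cannot be told apart where the counting does not use strand.

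Total counts ran from 7140416 to 8846287 per library, and 11593 to 13342 genes had at least 1 count. Library 3 of the NSN-MII group, with the smallest number of genes, also lay farthest from the other NSN-MII libraries, with a chi-square per degree of freedom of 67.1 and 52.5 against them, compared with 16.4 between the other two. Library 2 of the NSN-GV group stood apart in the same way, with 59.1 and 66.4 against its group, compared with 31.8 between the other two, and had the fewest genes of the GV libraries (12699). Leaving out the first of these raised the genes called between types at MII from 26 to 233 and for the interaction from 2 to 12, and leaving out the second left 0 called at GV. All 11 oocyte markers were above 1 FPKM on average in every group, with summed levels of 11580 to 15340 FPKM at GV, 12080 to 13090 FPKM in SN-MII and 9774 to 11210 FPKM in NSN-MII oocytes. Of 12 cumulus and granulosa cell markers, 3 or 4 were above 1 FPKM in a group (Cyp19a1, Kitl and Nr5a2, and in NSN-GV oocytes Inha). Their summed level was 27.4 to 37.3 FPKM in SN-GV, 27.8 to 34.6 FPKM in NSN-GV, 39.3 to 47.3 FPKM in SN-MII and 41.2 to 64.9 FPKM in NSN-MII oocytes, with Foxl2, Ptx3 and Lhcgr at 0 in every group. These sums were higher at MII, and their part in the stage differences was not tested.

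Within a group, the 6 genes covered a wide span of levels, here compared per length as FPKM. In SN-GV oocytes Birc5 stood highest at 1094 ± 108 FPKM (SD, n = 3), 4.43-fold above Aurkc. Aurkc, Cdca8 and Aurka followed at 247 ± 11.5, 242 ± 18.5 and 201 ± 12.7 FPKM (SD, n = 3). Incenp and Aurkb were lowest, at 45.9 ± 3.81 and 15.7 ± 1.31 FPKM (SD, n = 3). Of the neighbours in this order, Aurkc and Cdca8 overlapped. The order was the same in NSN-GV oocytes, where Aurkc overlapped Cdca8 and Cdca8 overlapped Aurka. At GV, only 60 genes had a higher mean FPKM than Birc5, among 11822 with a mean of at least 1 FPKM.

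At MII the order had changed at its top. Aurkc and Cdca8 were highest, with 487 ± 25.4 and 419 ± 80.0 FPKM in SN-MII (SD, n = 4) and 480 ± 30.3 and 386 ± 55.8 FPKM in NSN-MII oocytes (SD, n = 3), and Birc5 came after them. Aurkc and Cdca8, and Cdca8 and Birc5, overlapped between SN-MII libraries but not between NSN-MII libraries. Aurka, Incenp and Aurkb stood in that order beneath the others in all 4 groups. By the mean over the 7 MII libraries, 161 of 10444 genes with at least 1 FPKM stood above Aurkc.

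**Figure D1:**
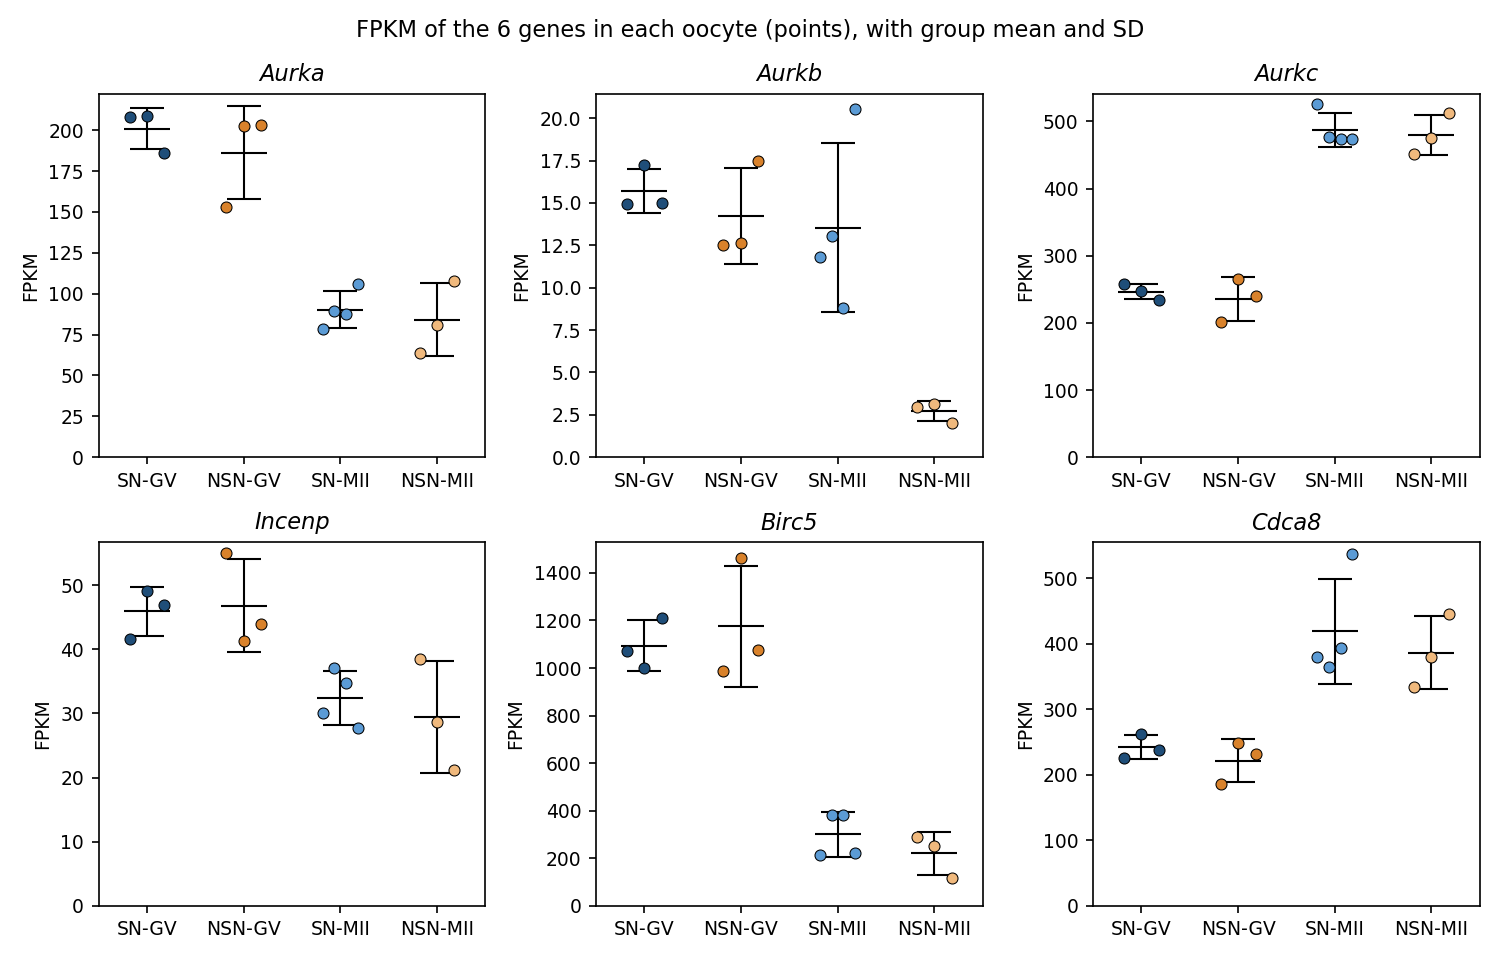
FPKM of each gene (vertical axis, linear and starting at 0) in each single oocyte (points) of the SN-GV, NSN-GV, SN-MII and NSN-MII groups, with the group mean (long bar) and SD (whiskers). Aurkb lies between 2.02 and 3.15 FPKM in the 3 NSN-MII oocytes and at 8.81 FPKM or more in the other groups, while Birc5 is lower and Aurkc and Cdca8 are higher in MII than in GV oocytes of both types.

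The first comparison asked whether NSN and SN oocytes differed before maturation. None of the 6 genes was called different between NSN-GV and SN-GV oocytes, and all 6 had overlapping libraries. The differences were small in size, the largest being that of Aurkb, −0.20 on the log2 scale (standard error of the fit, SE, 0.24).

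Aurka, the spindle pole kinase, had 208, 209 and 186 FPKM in the SN-GV and 153, 203 and 203 FPKM in the NSN-GV libraries. Aurkb, a kinase of the passenger complex, had 14.9, 17.2 and 15.0 FPKM in SN-GV and 12.5, 12.7 and 17.5 FPKM in NSN-GV libraries. Aurkc, its germ cell relative, had 257, 248 and 235 FPKM in SN-GV and 201, 266 and 240.0 FPKM in NSN-GV libraries. For each kinase the lowest GV value was in the first NSN-GV library, and the third NSN-GV library lay inside or above the SN-GV range.

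The scaffold Incenp had 41.7, 49.1 and 47.0 FPKM in SN-GV and 55.1, 41.4 and 44.0 FPKM in NSN-GV libraries. Birc5 had 1070, 999 and 1212 FPKM in SN-GV and 987, 1463 and 1074 FPKM in NSN-GV libraries. Cdca8 had 226, 262 and 238 FPKM in SN-GV and 185, 248 and 231 FPKM in NSN-GV libraries. The first NSN-GV library held the highest Incenp and the lowest Birc5 and Cdca8 of the 6 GV libraries.

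With edgeR's quasi-likelihood test and Benjamini-Hochberg adjustment, all 6 adjusted p-values were 1. At an unadjusted p under 0.05 there were also 0 of 6, and DESeq2's Wald test called 0. The background was as empty, since edgeR called 0 of 10839 genes (0.0%), with 190 at an unadjusted p under 0.05, and 6.57% of all genes tested did not overlap between the types. The sign of 5 of the 6 differences turned when 1 library was left out, Aurkb being the exception, and that of Birc5 was −0.12 without the second NSN-GV library.

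After maturation, Aurkb set itself apart from the other 5 genes in size. The SN-MII libraries had 11.8, 13.1, 8.81 and 20.5 FPKM of Aurkb and the NSN-MII libraries 2.97, 3.15 and 2.02 FPKM, so that every NSN-MII oocyte lay below every SN-MII oocyte. These values rest on 173, 171, 141 and 301 counts in SN-MII and on 39, 50 and 26 counts in NSN-MII libraries. The fitted level of Aurkb was 5.11-fold lower in the NSN type, or −2.35 on the log2 scale (SE 0.36, edgeR adjusted p = 0.0273).

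The call of Aurkb depended on single libraries and on the test. Its log2 fold change was negative in every fit, but its size varied from −2.54 to −1.92. With 1 library left out, its log2 fold change stayed between −2.54 and −2.06, and its edgeR adjusted p ran between 0.0141, with the third NSN-MII library omitted, and 0.136, with the first omitted. It was called in 2 of these 7 fits, and not without the second, the third or the fourth SN-MII library (0.0959, 0.0679 and 0.0647) or the second NSN-MII library (0.134). DESeq2's Wald test gave an adjusted p of 1.85e-07, and limma on log2(FPKM + 1) gave 0.0803 with a log2 fold change of −1.92.

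Aurkc, the other kinase of the passenger complex, had 525, 477, 474 and 473 FPKM in SN-MII and 452, 476 and 512 FPKM in NSN-MII libraries. Aurka had 78.4, 89.4, 87.4 and 106 FPKM in SN-MII and 63.9, 80.8 and 108 FPKM in NSN-MII libraries. Both kinases overlapped between the types, with log2 fold changes of −0.07 for Aurkc (SE 0.15) and −0.12 for Aurka (SE 0.23).

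Incenp had 30.1, 37.1, 34.7 and 27.7 FPKM in SN-MII and 38.5, 28.7 and 21.1 FPKM in NSN-MII libraries. Birc5 had 212, 384, 380 and 223 FPKM in SN-MII and 289, 252 and 118 FPKM in NSN-MII libraries. Cdca8 had 380, 365, 393 and 538 FPKM in SN-MII and 334, 379 and 445 FPKM in NSN-MII libraries. The third NSN-MII library was the lowest of the 7 MII libraries for Incenp, Birc5 and Aurkb, and the highest of them for Aurka.

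None of these 5 genes was called (edgeR adjusted p of 0.622 for Birc5, with a log2 fold change of −0.52, and 0.816 to 0.949 for the others). All 6 fitted differences were below 0, but 3 of the signs turned when 1 library was left out, at most to 0.08 for Aurka, 0.01 for Aurkc and 0.06 for Cdca8. Among all genes tested 0.249% were called lower in NSN-MII oocytes, against 1 of the 6, and 10.2% did not overlap between the types. DESeq2's Wald test also called Aurkb alone of the 6, among 219 genes it called in the whole table, against 26 by edgeR.

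Whether the NSN to SN difference was larger at MII than at GV was tested as a type by stage interaction in the 13 libraries. For Aurkb the interaction was −2.15 on the log2 scale (SE 0.46), with an unadjusted p of 0.000214 and an edgeR adjusted p of 0.196, so it did not pass the threshold. DESeq2's Wald test gave it an adjusted p of 0.00483. Of the 6 genes edgeR called 0 and DESeq2 1, and Aurkb was the 1 gene at an unadjusted p under 0.05. Among all genes edgeR called 0.0176% and DESeq2 called 44 genes, and 5.33% had an unadjusted p under 0.05 in edgeR. The interactions of Aurka, Aurkc and Cdca8 were 0.02, 0.01 and 0.03 on the log2 scale, and those of Incenp and Birc5 −0.19 and −0.61. Without the third NSN-MII library, the interactions of Aurka, Aurkc and Cdca8 were −0.34, −0.16 and −0.20, and that of Aurkb −2.06 (edgeR adjusted p = 0.171).

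**Figure D2:**
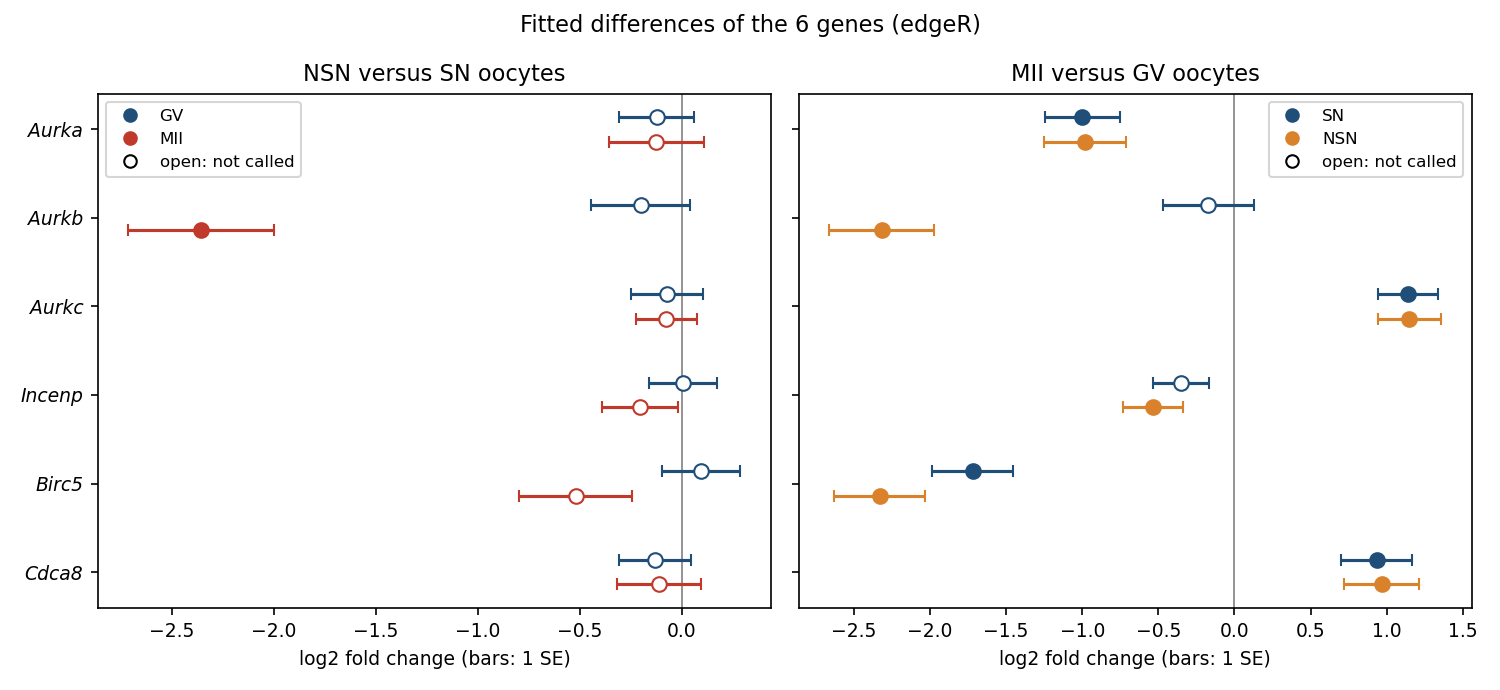
Fitted log2 fold changes (horizontal axis, bars 1 standard error) of the 6 genes for NSN versus SN oocytes at GV and MII (left) and for MII versus GV oocytes of the SN and NSN types (right), with filled symbols for an adjusted p under 0.05 from edgeR. On the left only Aurkb at MII is filled, at −2.35, and on the right Aurkc and Cdca8 lie above 0 and the other 4 genes below 0 in both types.

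Between GV and MII the 6 genes moved in both directions. Over both types together, the kinase Aurkc and the centromere-targeting subunit Cdca8 rose, and Aurka, Aurkb, Incenp and Birc5 fell. Birc5 fell the most, by 2.03 on the log2 scale (SE 0.20, edgeR adjusted p = 1.76e-07), from the 987 to 1463 FPKM of the GV libraries to the 118 to 384 FPKM of the MII libraries. Aurkc rose by 1.14 (SE 0.14, adjusted p = 2.4e-06) and Cdca8 by 0.95 (SE 0.17, adjusted p = 9.66e-05) in edgeR. Aurka fell by 0.99 (SE 0.18, adjusted p = 0.000129), Aurkb by 1.24 (SE 0.23, adjusted p = 0.000115) and Incenp by 0.45 (SE 0.13, adjusted p = 0.00743).

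Stage differences were common in these oocytes, and the count of 6 called genes has to be read against that. Over the whole table, edgeR called 31.7% of the tested genes higher and 36.9% lower at MII, and 47.4% did not overlap between stages. Of the 6 genes, 2 were higher and 4 lower, and 4 did not overlap on the TMM-scaled counts (CPM) used here. Aurkb overlapped, and so did Aurka by a narrow margin, with 244.0 CPM in the first NSN-GV and 245.7 in the third NSN-MII library. All 6 calls held in each of the 13 fits without 1 library. Scaling by library totals in place of TMM moved the median of all genes by −0.29 on the log2 scale and changed no direction among the 6.

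In SN oocytes alone, Birc5 fell by 1.72 on the log2 scale (SE 0.27, edgeR adjusted p = 4.89e-05), and Aurka fell by 0.999 (SE 0.25). Aurkc rose by 1.14 (SE 0.20) and Cdca8 by 0.93 (SE 0.23). Aurkb did not pass the test, with a log2 fold change of −0.17 (SE 0.30, adjusted p = 0.643), and its SN-GV range of 14.9 to 17.2 FPKM lay inside the SN-MII range of 8.81 to 20.5 FPKM. Incenp, at −0.35 (SE 0.18), did not overlap between stages but had an adjusted p of 0.111, which DESeq2 placed at 0.0474. In this comparison edgeR called 25.1% of the tested genes higher and 31.2% lower, and of the 6 genes 2 were higher and 2 lower.

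In NSN oocytes all 6 genes were called. Aurkb fell by 2.32 on the log2 scale (SE 0.35, edgeR adjusted p = 3.58e-05), from 12.5 to 17.5 FPKM at GV to 2.02 to 3.15 FPKM at MII without overlap. Birc5 fell by 2.33 (SE 0.30) and Aurka by 0.98 (SE 0.27), while Aurkc rose by 1.15 (SE 0.21) and Cdca8 by 0.97 (SE 0.25). Incenp fell by 0.54 (SE 0.20, adjusted p = 0.0283) and was not called in 4 of its 13 fits without 1 library: those without the first or the third NSN-GV library (0.0704 and 0.0510) or the second or the third NSN-MII library (0.0906 and 0.0694). The shares of all genes called higher and lower were 25.5% and 30.8%. That Aurkb was called in NSN and not in SN oocytes is the same contrast as the interaction, whose adjusted p from edgeR was 0.196.

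Among the kinases, Aurkc made up more of the sum at MII. The 3 kinases together had 464 ± 24.0 FPKM in SN-GV, 436 ± 61.2 in NSN-GV, 591 ± 20.4 in SN-MII and 567 ± 52.0 in NSN-MII oocytes (SD, n = 3, 3, 4 and 3). Aurkc held 52.1% to 55.3% of that sum in the GV libraries and 78.9% to 87.1% in the MII libraries. Aurka held 41.8% to 44.1% at GV and 12.3% to 17.7% at MII. The share of Aurkb was 3.11% to 3.63% in SN-GV, 2.63% to 3.80% in NSN-GV, 1.55% to 3.42% in SN-MII and 0.325% to 0.573% in NSN-MII oocytes.

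The ratio of Aurkc to Aurkb, the 2 kinases that can occupy the passenger complex, was 17.2, 14.4 and 15.6 in the SN-GV and 16.1, 21.0 and 13.7 in the NSN-GV libraries. At MII it was 44.6, 36.6, 53.8 and 23.1 in SN-MII and 152, 151 and 253 in NSN-MII libraries. The 4 SN-MII ratios were all above the GV ratios, and the 3 NSN-MII ratios were all above the SN-MII ratios. The ratio of Aurka to Aurkb was 12.8 ± 0.958 in SN-GV and 13.3 ± 2.37 in NSN-GV (SD, n = 3 each), 7.15 ± 1.99 in SN-MII (SD, n = 4) and 33.5 ± 17.3 in NSN-MII oocytes (SD, n = 3). These ratios use the same values as the comparisons above and were not tested.

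**Figure D3:**
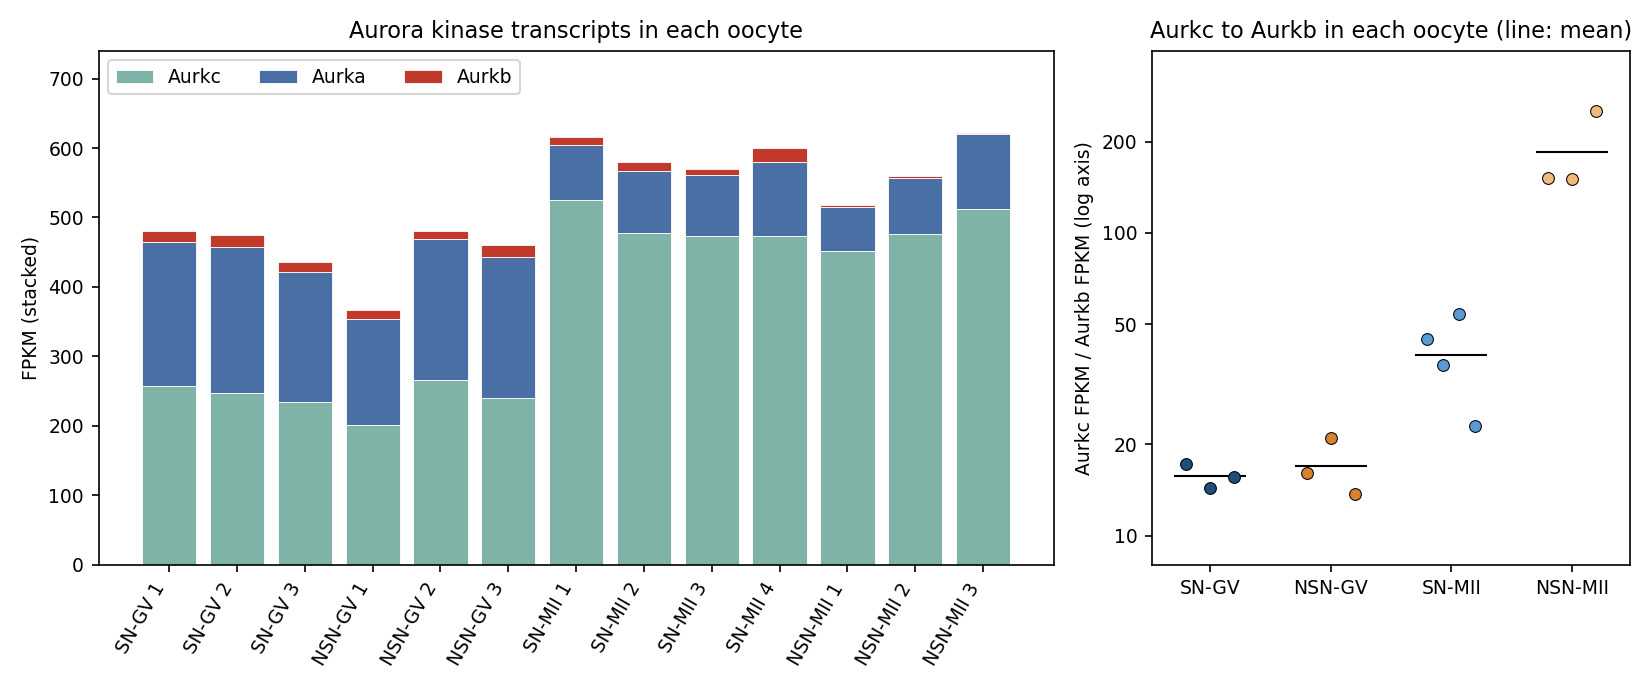
Left, FPKM of Aurkc, Aurka and Aurkb stacked (vertical axis, linear from 0) for each of the 13 oocytes. Right, the ratio of Aurkc to Aurkb FPKM in each oocyte (points, log axis) with the group mean (line), 15.8 in SN-GV, 16.9 in NSN-GV, 39.5 in SN-MII and 185 in NSN-MII oocytes.

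The proportions of the non-kinase subunits to one another also differed between GV and MII. Per FPKM of the scaffold Incenp, there were 23.9 ± 3.10 FPKM of Birc5 in SN-GV and 25.9 ± 8.80 in NSN-GV (SD, n = 3 each), against 9.08 ± 1.85 in SN-MII (SD, n = 4) and 7.29 ± 1.62 in NSN-MII oocytes (SD, n = 3). The ratio of Cdca8 to Incenp went the other way, with 5.28 ± 0.187 in SN-GV and 4.87 ± 1.36 in NSN-GV (SD, n = 3 each), 13.3 ± 4.23 in SN-MII (SD, n = 4) and 14.3 ± 6.26 in NSN-MII oocytes (SD, n = 3). For both ratios the GV libraries did not overlap the MII libraries. Birc5 to the kinase Aurkb was 70.1 ± 11.5 in SN-GV and 85.4 ± 27.7 in NSN-GV (SD, n = 3 each), 25.3 ± 14.1 in SN-MII (SD, n = 4) and 78.6 ± 19.6 in NSN-MII oocytes (SD, n = 3). In SN oocytes this ratio did not overlap between stages. In NSN oocytes it did, with 61.4 to 115.6 at GV and 58.3 to 97.4 at MII.

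The genes that act on or with these kinases were taken as 4 lists, 53 genes in all. They are the regulators of Aurora A, the factors that recruit the passenger complex to centromeres, the substrates of Aurora B or C with midzone proteins, and the opposing phosphatases with the proteins that move or destroy the kinases. None of the 51 genes tested at GV was called between NSN and SN oocytes by edgeR or DESeq2. Of these, 0 had an unadjusted p under 0.05, against 1.75% of all genes tested. At MII 0 of 51 were called by either tool, with 7 (13.7%) at an unadjusted p under 0.05, against 9.38% of all genes tested, and a lowest edgeR adjusted p of 0.228. For the interaction 0 of 52 were called by either tool. Here 2 (3.85%) had an unadjusted p under 0.05, against 5.33% of all genes tested.

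The 7 genes were named after their values were seen, went in both directions and were none of them called. Those with higher fitted levels in NSN-MII oocytes were Ppp2r5a, a regulatory subunit of phosphatase 2A, at 1.503 on the log2 scale (SE 0.44, edgeR adjusted p = 0.228), and 4 of the 10 centromere recruitment genes. These were Haspin, the kinase that writes the histone H3 mark survivin binds, at 0.76 (SE 0.26), Ttk, the checkpoint kinase Mps1, at 0.61 (SE 0.20), and the heterochromatin protein genes Cbx5 and Cbx3, at 0.60 (SE 0.23) and 2.11 (SE 0.81), Cbx3 from means of 0.450 and 1.99 FPKM. Those with lower levels were the substrate genes Ska3, at −0.76 (SE 0.30), and Cpeb1, at −0.39 (SE 0.17). The shugoshin genes of the recruitment list lay below 0, with −0.33 for Sgo1, −0.06 for Sgo2b and −0.03 for Sgo2a.

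Between GV and MII the partner genes moved in both directions too. Over both types, 26 of 52 were called higher, 17 lower and 9 neither, against 31.7% higher and 36.9% lower over all genes tested, the background for each list below. Of 11 tested regulators of Aurora A, 6 rose and 2 fell, with a median log2 fold change of 0.45, against −0.10 over all genes. Of 10 centromere recruitment genes, 4 rose and 4 fell, with a median of −0.13. Of 13 substrates and midzone genes 8 rose and 4 fell, with a median of 0.46, and of 18 phosphatase and turnover genes 8 rose and 7 fell, with a median of 0.16. The gene with the largest rise and the largest fall in each list is described below, and Tpx2, Plk1, Haspin, Sgo2a, Ska1, Cdc20 and Fzr1 were added after their values were seen.

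Tpx2, the activator of Aurora A, rose by 1.01 on the log2 scale (SE 0.15) while Aurka fell. The largest rise among the regulators of Aurora A was that of Cep192, a spindle pole scaffold for the kinase, from 8.62 ± 0.387 FPKM in SN-GV and 6.44 ± 2.65 in NSN-GV (SD, n = 3 each) to 17.8 ± 2.60 in SN-MII (SD, n = 4) and 20.8 ± 0.950 in NSN-MII oocytes (SD, n = 3). The largest fall was that of Aurkaip1, an Aurora A interacting protein, from 91.1 to 138 FPKM in the GV libraries to 1.01 to 6.00 FPKM in the MII libraries. Plk1, a kinase that acts with Aurora A, had a log2 fold change of −0.00 (SE 0.13) and was not called.

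In the centromere recruitment list, Rcc2 rose the most, by 1.44 on the log2 scale (SE 0.18), from 3.51 to 4.84 FPKM at GV to 6.74 to 12.2 FPKM at MII. Bub1, the kinase whose histone H2A mark recruits shugoshin, had the largest fall: it fell by 2.29 (SE 0.19), from 28.3 to 59.5 FPKM at GV to 4.85 to 13.7 FPKM at MII. Haspin fell by 1.13 (SE 0.19) and the shugoshin gene Sgo2a rose by 1.39 (SE 0.18). Haspin and Bub1, the kinases that write the 2 histone marks, were both called lower at MII.

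Kif20a, the kinesin that carries the complex to the midzone, rose the most of the substrates and midzone genes, by 1.47 on the log2 scale (SE 0.17). Ska3, of the SKA complex at kinetochores, had the largest fall: it fell by 2.998 (SE 0.18), from 65.5 to 71.3 FPKM at GV to 6.32 to 16.8 FPKM at MII. Its partner Ska1 fell by 2.18 (SE 0.17).

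Among phosphatases and turnover genes, the catalytic subunit Ppp1cb rose the most, by 1.43 on the log2 scale (SE 0.27), from 1.79 to 3.55 FPKM at GV to 3.59 to 10.5 FPKM at MII. Usp35, a deubiquitinase, had the lowest log2 fold change, −3.53 (SE 1.06, edgeR adjusted p = 0.00723), but rested on 1 to 39 counts at GV and 0 to 9 at MII, with overlapping libraries, and was not called without the third SN-GV library (−2.17, adjusted p = 0.089). Cdc20 and Fzr1, the activators of the anaphase-promoting complex, went opposite ways, with a rise of 1.27 (SE 0.15) for Cdc20 and a fall by 3.21 (SE 0.35) for Fzr1.

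**Figure D4:**
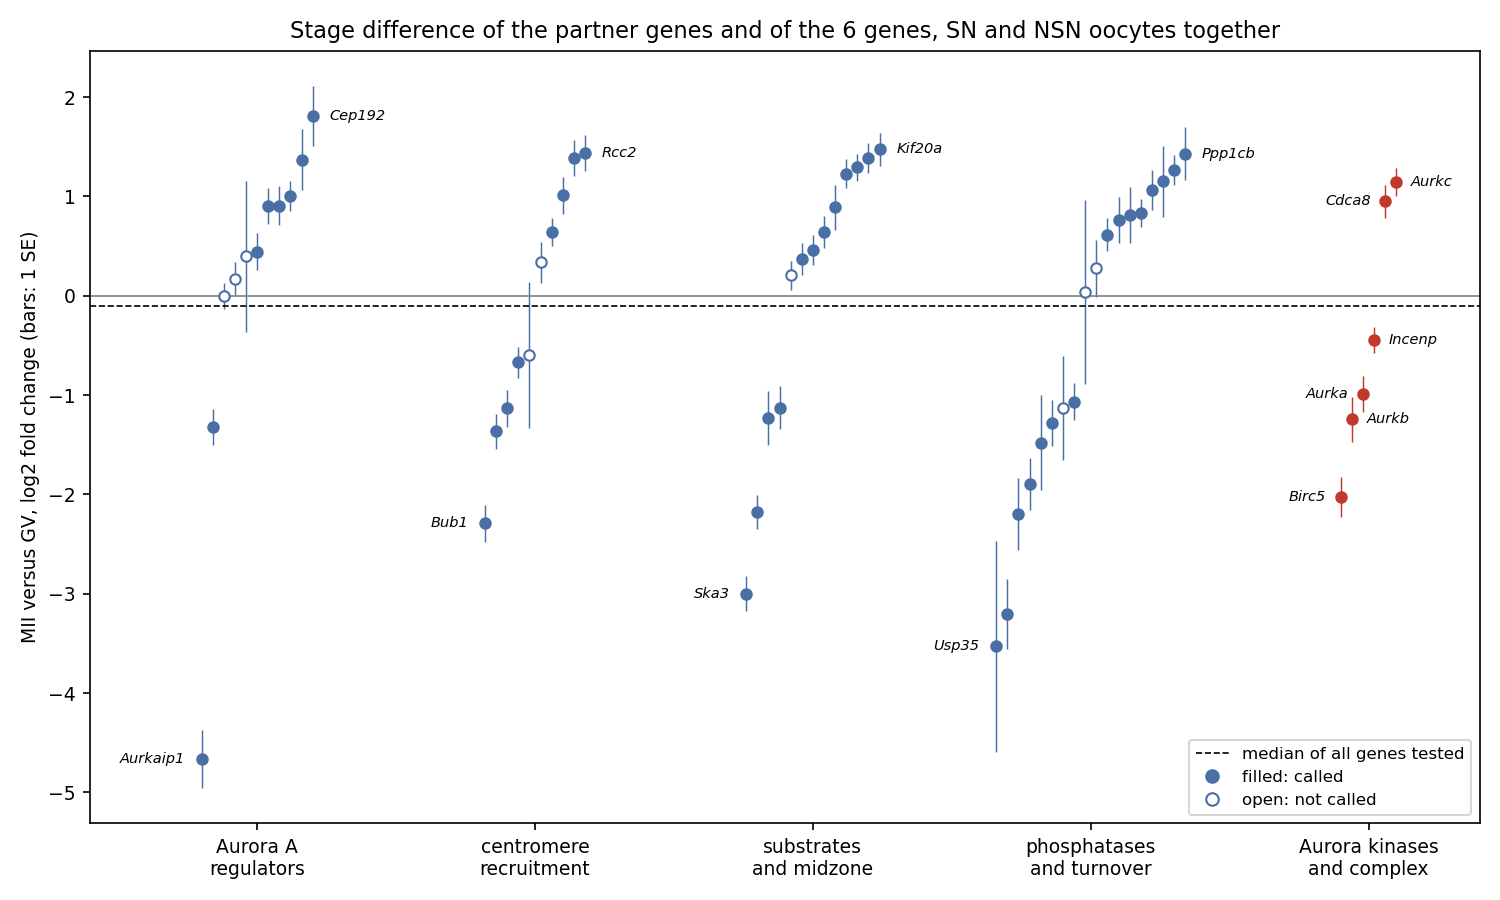
Log2 fold change between MII and GV oocytes of both types (vertical axis, bars 1 standard error) for the genes of the 4 partner lists and for the 6 Aurora kinase and passenger complex genes, each ordered by value within its list. Filled symbols are called at an adjusted p under 0.05 from edgeR, the dashed line is the median of all genes tested, −0.10, and every list holds genes above and below 0.

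Each gene was also compared with 11524 others by the Pearson correlation of log2(FPKM + 1) over the 13 libraries. These libraries share the stage difference, so high values are common and are given as a description only. The genes most like Aurkb were Ube2t (r = 0.978) and Camkmt (r = 0.975). Those most like Aurkc were Eif4a2 (r = 0.993) and AI987944 (r = 0.991), those most like Aurka Nsmce1 (r = 0.983) and Scn8a (r = 0.977), and those most like Incenp Prrc2a (r = 0.970) and Enpp5 (r = 0.965). Birc5 was closest to Tmem106c (r = 0.990) and Tubb2a (r = 0.989), and Cdca8 to H3f3b (r = 0.983) and Hnrnpc (r = 0.981). None of the 6 genes was among the closest to another of them.

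After subtraction of each group's mean, which leaves the spread between oocytes of one group, Aurka was closest to Asf1b (r = 0.972) and Cept1 (r = 0.955) over the same 13 libraries. Aurkb was closest to Ralgps1 (r = 0.895) and Dnpep (r = 0.878), Aurkc to Hist1h3f (r = 0.962) and Obox5 (r = 0.936), and Incenp to Zfp282 (r = 0.942) and Tspyl4 (r = 0.938). Birc5 was closest to Mcee (r = 0.975) and Atp5j2 (r = 0.974), and Cdca8 to Platr30 (r = 0.960) and H3f3b (r = 0.929). Among pairs of the 6 genes themselves, the highest r on this scale was 0.838, for Aurka and Cdca8, and the lowest −0.842, for Aurka and Incenp. Pairs with Aurkb lay between −0.106 and 0.423. For Aurka, Cdca8 and Incenp the first NSN-GV and the third NSN-MII library lay at an end of their group.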

How the data were processed

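Single-oocyte SMART-seq2 libraries were sequenced on an Illumina HiSeq X-10. Per the labels, the authors trimmed reads with Trim Galore 0.4.4, aligned them with Bowtie2 2.3.5 to mm10 and quantified genes with RSEM 1.2.28. They deposited the resulting expected counts per gene (estimated counts, in which reads that match several genes are divided) in 1 table for GV and 1 for MII oocytes, and FPKM (fragments per kilobase of transcript, scaled to the library) in 1 table. DESeq2 1.20.0 is also named in the labels. Whether counting used strand is not given in the sources used here.

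The 6 genes and the partner and marker lists were chosen with earlier results of these data known. Expected counts were rounded to whole numbers, filtered with filterByExpr by group and given TMM factors, with edgeR version 4.0.16 under R 4.3.3. The quasi-likelihood test with its default settings was fitted over all genes and adjusted by the Benjamini-Hochberg method, and calls were made below an adjusted p of 0.05. The types were compared separately at GV and at MII, and the stages and the interaction in 1 model of 13 libraries. Standard errors are the log2 fold change divided by the square root of its F statistic. Levels and ratios come from FPKM, without a test. Named genes were the 6, the called partner gene with the largest rise and fall in each list, any partner called between types, and the 2 genes most correlated with each of the 6. Partner genes named outside this rule (those at an unadjusted p under 0.05 between types at MII, Tpx2, Plk1, Ska1, Cdc20, Fzr1 and the shugoshin genes) were added after their values were seen.

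The alternatives were DESeq2 1.42.0, its size factors, library totals, no filter, a replicate block, limma 3.58.1 on log2(FPKM + 1) and log2(FPKM + 0.1) of genes with a mean of at least 1 FPKM or of all genes, and each library left out. Robust fitting and the newer dispersion method of glmQLFit were tried after the counts of calls were seen. Simulated counts had 200 genes changed by 2 on the log2 scale. The NSN versus SN fit at GV called 140 of them and 14 of the other genes, and that at MII called 150 and 9. The interaction fit called 89 of the 200 changed genes and 5 of the others. No 2 libraries of a group were alike within sampling noise (chi-square per degree of freedom of 10.2 to 67.1). Counts cover 7140416 to 8846287 per library, without molecular identifiers.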

Additional observations from a re-analysis of the deposited data

Results flagged for a closer look

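Among the 4 SN-MII libraries, 2 of the 6 genes had a library farther from the others than Dixon's 95% value of 0.829 allows, where chance flags about 1 in 20 groups. Aurkc stood at 525.4 FPKM in the first library, with a gap of 0.922 of the whole range to the next. In CPM the 4 SN-MII libraries had 610.7, 559.9, 575.5 and 635.6 of Aurkc, so the first was not the highest. Cdca8 stood at 537.6 FPKM in the fourth library, with a gap of 0.84 of the range, and was highest there in CPM too (950.5). Dixon's test was run on FPKM only. The other groups have 3 libraries and were not tested.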

How the results depend on the processing

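All 6 stage calls over both types, the 4 in SN oocytes and the rises of Aurkc and Cdca8 kept their direction and threshold under every alternative run. At GV, genes called were 0, but 1 under limma with either pseudocount, and the Incenp value changed sign, to −0.004 without the filter and −0.019 with 13 libraries in 1 fit. With 1 library left out, uncalled GV differences ranged from −0.211 to 0.025 for Aurka, −0.186 to 0.058 for Aurkc, −0.091 to 0.058 for Incenp, −0.123 to 0.231 for Birc5 and −0.255 to 0.004 for Cdca8. At MII, members called fell from 1 to 0 under the replicate block (Aurkb −2.07, adjusted p = 0.200) and under limma (0.0803, 0.0843 and, without a filter, 0.172), and ranged from 0 to 1 with 1 library left out. Genes called at MII were 26, against 219 by DESeq2, 16 with library totals, 89 without a filter, 69 with 13 libraries in 1 fit, 47 with the newer dispersion method and 50 with robust fitting added, 2 with the replicate block, 4, 4 and 2 under the 3 limma settings, and 2 to 233 with 1 library left out (233 without the third NSN-MII library). MII differences ranged from −0.455 to 0.084 for Aurka, −0.225 to 0.008 for Aurkc and −0.33 to 0.055 for Cdca8 with 1 library left out, and Cdca8 was 0.029 with the block. For the interaction, members called were 1 by DESeq2, and genes called were 2, against 44 by DESeq2, 6 without a filter, 5 with the newer dispersion method, with or without robust fitting, 1, 1 and 4 under limma, and 0 to 12 with 1 library left out (12 without the third NSN-MII library). Interaction values of Aurka were −0.004, −0.005 and −0.004 under limma and ranged from −0.337 to 0.194 with 1 library left out, those of Aurkc from −0.159 to 0.15 and of Cdca8 from −0.203 to 0.206. In SN oocytes, Incenp was called by DESeq2 (0.0474) and with library totals (0.0144), and in NSN oocytes it was not called without a filter (0.0687). By CPM, which is not per length, the Aurkc to Aurkb ratio was 9.24, 10.2, 24.7 and 116 in SN-GV, NSN-GV, SN-MII and NSN-MII oocytes, and with 1 library left out the FPKM ratio was 15.0 to 16.4, 14.9 to 18.6, 34.8 to 45.0 and 152 to 203. The cause of these changes was not tested. Replicate numbers are not said to pair oocytes, and deviations of same-numbered libraries had correlations of −0.394 to 0.164, so the block is an alternative only; it changed no other call of the 6 genes. In NSN-MII oocytes Aurkb rests on 26 to 50 counts per library.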
